A study of Mus musculus with 30 samples.

Results

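Dendritic cells lacking Rubcn were followed for 30 min after they met dying cells. Of 30 RNA sequencing libraries in the series, 6 make up this comparison: 3 of knockout (KO) cells given apoptotic Jurkat cells for 30 min and 3 of untreated KO cells, chosen by the genotype, treatment and time in their titles, and every gene in the table was considered. The cells came from mouse bone marrow cultured with 200 ng/ml FLT3L and were harvested on days 6 to 7. FLT3L is the growth factor that yields both conventional and plasmacytoid dendritic cells. Both groups carried the Rubcn knockout. The labels do not give the strain, the sex or age of the mice, or the design of the allele. The labels also do not say whether the 3 libraries of a group came from separate mice. The p-values below therefore measure spread between libraries. In the main fit that spread was estimated jointly from all 30 libraries in 10 groups, not from the 6 compared here alone. Jurkat is a human T-cell leukaemia line. The way it was made apoptotic and the ratio of Jurkat cells to dendritic cells are not given by the labels. Used beside these groups were KO cells given ovalbumin protein (OVA) for 30 min and KO cells given Jurkat cells for 4 h, with 3 libraries each. Wild-type (WT) cells untreated, given Jurkat cells for 30 min or 4 h, or given OVA for 30 min were also used, with 3 libraries each.

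Rubcn encodes Rubicon, which binds the class III phosphatidylinositol 3-kinase complex, holds back canonical autophagy and is needed for LC3-associated phagocytosis, the process by which LC3 is joined to the membrane of a phagosome that holds, for example, a dead cell. Dendritic cells take up dead cells through receptors for exposed phosphatidylserine and can present their antigens. Within minutes of a stimulus, kinase cascades and NF-kB switch on immediate early genes, whose RNAs need no new protein to be made. Interferon-stimulated genes usually follow later, once type I interferon has been secreted and has acted on its receptor through STAT factors and IRF9.

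The 6 libraries held 43.8 to 47.0 M counts each. Levels are CPM, counts per M counts of a library after TMM scaling. They are not corrected for gene length, so they are compared between libraries and not between genes. Rubcn itself stood at 70.4, 72.2 and 75.8 CPM in the untreated KO libraries and at 66.2, 69.9 and 69.6 CPM after Jurkat cells. The change was not called (log2 fold change -0.09, SE 0.0477, edgeR quasi-likelihood FDR 0.231), and the WT libraries held 98.9 ± 4.96 CPM untreated and 80.9 ± 1.63 CPM after Jurkat cells (SD, n = 3). The knockout libraries thus still held counts of the gene, and a count over the whole gene does not show which exons the reads came from. Defining genes of dendritic cells were present in all 6 libraries, with Flt3 at 543.5 to 563.8 CPM and the conventional dendritic cell factor Zbtb46 at 78.3 to 82.8 CPM. Marker lists of cells that the culture could also hold had few calls: 0 of 9 basophil, 0 of 10 stromal, 0 of 8 B cell, 0 of 9 neutrophil and 0 of 3 erythroid genes tested were called, while 2 of 11 monocyte and macrophage genes were called higher. With 17% of all genes called, lists this short cannot show that levels were stable. Their median log2 fold changes were -0.01, 0.02, 0.05, 0.20, 0.19 and 0.03 in this order, against 0.01 over all genes tested. Among markers of the dendritic subsets, 3 of 15 of type 1 conventional cells were called higher and 1 lower, and 1 in each direction was called among 13 of type 2 and among 16 of plasmacytoid cells, beside 8.72% of all genes called higher and 8.26% lower.

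One library stood apart in genes of the later time point and is named here because many results below touch it. Jurkat replicate 1 held raised levels of genes that are typical of the 4 h time point. Among 62 genes with at least 100 CPM after 4 h of Jurkat cells in KO and at least 20 times their untreated level, replicate 1 lay at a median of 5.60% of the way from the untreated mean to the 4 h mean, with an interquartile range of 5.33% to 6.18%. Replicates 2 and 3 lay at 0.50% and 0.99%. The 3 KO libraries given OVA lay at 0.10% to 0.11%, and the 3 WT libraries given Jurkat cells at 0.01% to 0.22% over 58 genes chosen the same way in WT. Whether RNA of the later time point entered this library or its culture responded sooner was not tested, and results that rest on it are given with and without it. Over all genes, KO untreated replicate 1 also differed from its group, with a chi-square per degree of freedom of 10.27 and 12.92. Between untreated replicates 2 and 3 it was 2.84. For Jurkat replicate 1 the values were 12.49 and 13.06, against 3.55 between Jurkat replicates 2 and 3.

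**Figure D1:**
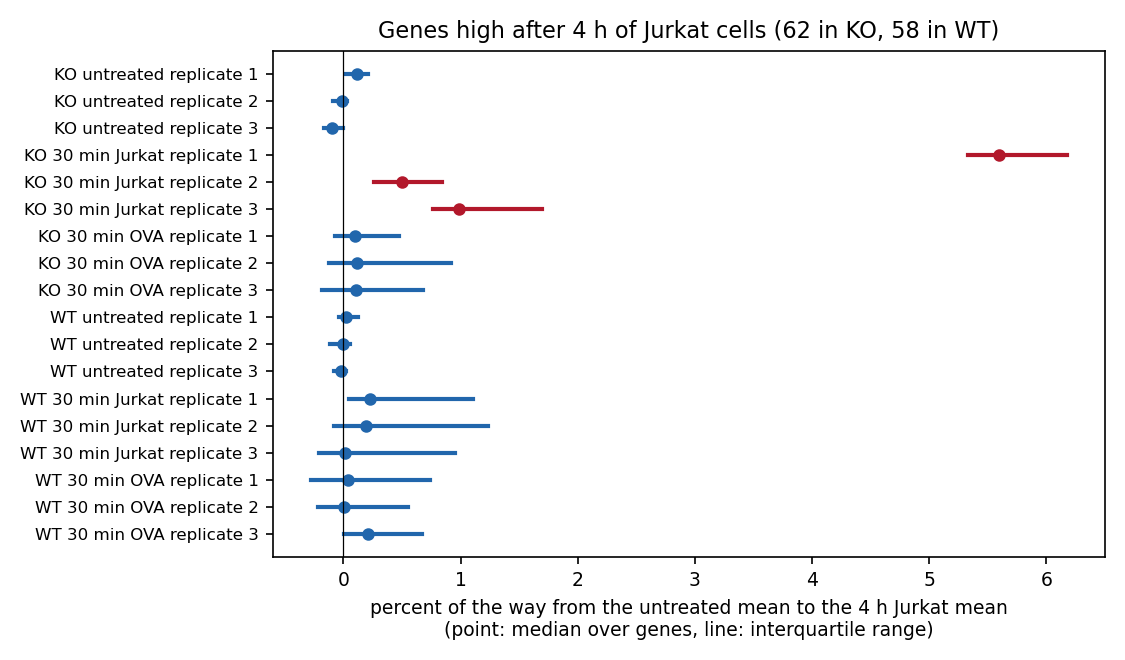
Position of each library between untreated and 4 h Jurkat cells, in percent of that distance, over 62 genes in KO and 58 in WT that are high at 4 h. Points are medians over genes and lines are interquartile ranges. KO 30 min Jurkat replicate 1 sits at 5.60% and every other library shown at 0.99% or less.

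Over all genes, 2514 of 14808 tested were called at an FDR under 0.05 (17% of genes), 1291 higher (8.72%) and 1223 lower (8.26%) after Jurkat cells. Rises and falls were of unlike size. The median log2 fold change was 0.33 among genes called higher and -0.21 among those called lower. Of the 397 genes that changed at least 2-fold (2.68%), 368 rose (2.49%) and 29 fell (0.196%). For 2369 of the called genes the 3 libraries of one group all lay beyond those of the other (16% of genes tested). With only these 2 groups in the fit 1460 genes were called, 197 of them at least 2-fold, and with a filter of 5 CPM in 3 libraries 114 genes changed at least 2-fold. Among the 368, 308 lay under 1 CPM in untreated cells and 31 at 5 CPM or more. Without Jurkat replicate 1, 1674 of 15002 genes were called (11.2%), 855 higher (5.7%) and 819 lower (5.46%), and 1596 of the original calls were made again in the same direction. The count of genes called lower was 784 without KO untreated replicate 3.

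**Figure D2:**
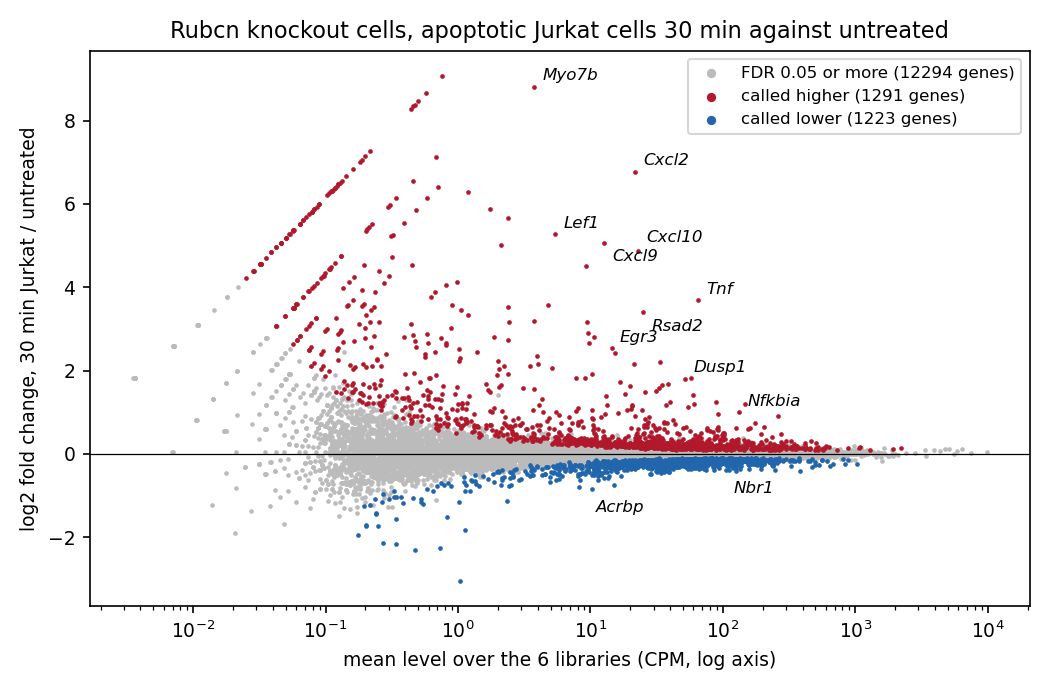
Log2 fold change after 30 min of Jurkat cells against the mean level over the 6 libraries in CPM (log axis) for the 14808 genes tested. Red points are the 1291 genes called higher and blue points the 1223 called lower, and the diagonal streaks at the left are genes with few or no counts in untreated cells, whose fitted fold changes have no fixed size.

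The promoters of 4 genes that rose are shown, chosen because they hold a motif of NF-kB or of the interferon response, whose targets are described below. Sequences are the 250 bases before the gene's start from RefSeq's table (build GRCm38.p6), written 5′ to 3′ along the gene. Capitals mark matches on either strand to an NF-kB site in Cxcl2 and Nfkbia, and to the interferon-stimulated response element in Isg15 and Ifit1.
Cxcl2 (chr5:90903649-90903898, plus strand): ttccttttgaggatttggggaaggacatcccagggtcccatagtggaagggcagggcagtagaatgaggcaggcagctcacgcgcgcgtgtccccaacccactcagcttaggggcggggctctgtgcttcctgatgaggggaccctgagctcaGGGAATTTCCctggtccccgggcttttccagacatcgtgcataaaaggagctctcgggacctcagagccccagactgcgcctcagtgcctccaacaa
Nfkbia (chr12:55492648-55492897, minus strand): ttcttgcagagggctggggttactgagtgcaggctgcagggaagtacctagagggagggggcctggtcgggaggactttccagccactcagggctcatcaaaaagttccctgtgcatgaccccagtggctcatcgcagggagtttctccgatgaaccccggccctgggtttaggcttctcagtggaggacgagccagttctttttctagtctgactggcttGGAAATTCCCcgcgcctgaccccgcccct
Isg15 (chr4:156200819-156201068, minus strand): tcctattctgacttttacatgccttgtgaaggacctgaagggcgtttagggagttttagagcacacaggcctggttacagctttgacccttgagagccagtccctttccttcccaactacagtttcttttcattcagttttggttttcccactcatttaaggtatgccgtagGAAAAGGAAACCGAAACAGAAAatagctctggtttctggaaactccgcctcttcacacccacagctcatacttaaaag
Ifit1 (chr19:34640639-34640888, plus strand): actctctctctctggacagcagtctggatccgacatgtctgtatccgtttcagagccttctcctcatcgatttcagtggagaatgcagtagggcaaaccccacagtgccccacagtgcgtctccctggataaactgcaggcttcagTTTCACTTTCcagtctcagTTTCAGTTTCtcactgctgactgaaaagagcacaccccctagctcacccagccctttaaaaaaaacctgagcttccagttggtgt

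The NF-kB match starts 97 bases before the start of Cxcl2 and 29 bases before that of Nfkbia. Isg15 holds 3 overlapping matches to the response element, from 78, 72 and 66 bases before its start, and Ifit1 holds 2, from 104 and 85 bases. Of 32817 such promoter windows in the table, 0.357% hold the NF-kB motif and 2.97% the response element. Among chemokine genes called higher, 10 had a window and 3 held the NF-kB motif, against 0 of 2 among those not called higher, too few to compare. Among interferon-stimulated genes called higher, 19 had a window and 12 held the response element, against 4 of 9 among those not called higher. Which interferon-stimulated genes were called rested largely on Jurkat replicate 1, as described below. A match is a description of these letters only.

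Many immediate early genes were higher after Jurkat cells. Of 26 genes of the EGR, NR4A, KLF and related families, 16 were called higher and 2 lower, beside 8.72% and 8.26% of all genes. Their median log2 fold change was 0.45 against 0.01 over all genes tested. Without Jurkat replicate 1 the counts were 15 and 2 (5.7% and 5.46% of all genes), and in WT they were 16 and 1 (14.2% and 14.5%). Egr3 (Entrez 13655, mm10 chromosome 14, 70077445 to 70082613), a zinc finger transcription factor, was at 4.49, 4.42 and 3.81 CPM in untreated cells and at 24.9, 23.6 and 25.6 CPM after Jurkat cells. All 3 Jurkat libraries lay close together and far above the untreated ones (log2 fold change 2.54, SE 0.0846, edgeR FDR 3.15e-19). Its relative Egr1 went from 38.0, 31.3 and 33.5 CPM to 71.1, 72.7 and 79.4 CPM (log2 fold change 1.12). Egr2 went from 12.9, 8.87 and 7.85 CPM to 21.9, 27.4 and 31.4 CPM (log2 fold change 1.45). For Egr2, replicate 1 was the lowest of the Jurkat libraries, and the groups did not overlap.

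Orphan nuclear receptors of the NR4A family behaved in 2 ways. Nr4a1 was at 15.9, 17.2 and 17.1 CPM in untreated cells and at 50.9, 51.3 and 56.6 CPM after Jurkat cells (log2 fold change 1.66, SE 0.0509, edgeR FDR 4.71e-20). Nr4a3 was at 17.1, 16.4 and 14.7 CPM and then at 85.1, 23.1 and 30.2 CPM (log2 fold change 1.52, and 0.73 with an FDR of 0.000116 without replicate 1). Nr4a1 was thus even over the 3 libraries, whereas the size of the Nr4a3 rise rested on replicate 1. At 4 h in KO, Nr4a1 stood at 48.6 CPM on average and Nr4a3 at 1231 CPM.

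Subunits of AP-1, the dimeric transcription factor made of FOS, JUN and ATF proteins, were called higher in 6 of 13 cases, with or without replicate 1. The shares over all genes were 8.72% with it and 5.7% without it. In WT 7 of 13 were called higher, beside 14.2% of all genes. Fos was at 68.6, 59.8 and 60.8 CPM in untreated cells and at 122.1, 118.9 and 125.6 CPM after Jurkat cells (log2 fold change 0.95, edgeR FDR 7.67e-10). Junb had a log2 fold change of 0.65, Maff of 0.89 and Atf3, a stress-induced member, of 0.58. None of the 13 was called lower.

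Feedback inhibitors of signalling were also called. Of 19 SOCS, DUSP and SPRY genes, 11 were called higher and 2 lower, beside 8.72% and 8.26% of all genes. Without replicate 1 there were 8 and 2 (5.7% and 5.46% of all genes), and in WT 9 and 2 (14.2% and 14.5%). Dusp1, a phosphatase that switches off p38 and JNK kinases, was at 25.3, 20.7 and 23.0 CPM in untreated cells and at 77.1, 80.3 and 84.6 CPM after Jurkat cells (log2 fold change 1.81, SE 0.067, edgeR FDR 4.46e-18). Dusp2, another MAP kinase phosphatase, went from 19.6, 17.8 and 17.8 CPM to 67.3, 49.9 and 59.8 CPM (log2 fold change 1.68). Socs3, an inhibitor of STAT3-activating receptors, had a log2 fold change of 1.25. The 2 that fell were Socs5 (log2 fold change -0.39) and Dusp6, a phosphatase selective for ERK (log2 fold change -0.17, edgeR FDR 0.0156). The Dusp6 call was lost without Jurkat replicate 3 (FDR 0.0843). Zfp36, which encodes tristetraprolin, a protein that speeds the decay of Tnf and other AU-rich RNAs, went from 184.5, 175.2 and 183.6 CPM to 345.5, 326.7 and 355.8 CPM (log2 fold change 0.92).

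The NF-kB system includes its subunits and the inhibitors that they induce. Of 19 genes of both kinds, 8 were called higher and 1 lower, beside 8.72% and 8.26% of all genes. The median log2 fold change was 0.15. Without replicate 1 there were 6 and 1 (5.7% and 5.46% of all genes), and in WT 5 and 2 (14.2% and 14.5%). The 3 largest rises were in inhibitors or modulators. Nfkbia, which encodes IkB-alpha and whose promoter is shown above, was at 87.5, 88.6 and 87.4 CPM in untreated cells and at 189.9, 158.6 and 181.6 CPM after Jurkat cells (log2 fold change 1.01, SE 0.0523, edgeR FDR 1.94e-14). Tnfaip3, the ubiquitin-editing inhibitor A20, went from 55.0, 52.1 and 50.1 CPM to 138.6, 106.5 and 128.6 CPM (log2 fold change 1.25). Nfkbiz, a nuclear IkB protein, had a log2 fold change of 1.42. Among the subunits Relb stood at a log2 fold change of 0.22 with an FDR of 0.04, a call that was lost without Jurkat replicate 1 (FDR 0.382), without KO untreated replicate 1 (FDR 0.146) and without KO untreated replicate 3 (FDR 0.0897), or with scaling to total counts (FDR 0.0535).

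Chemokines and cytokines held 5 of the 8 largest rises among genes at 5 CPM or more. Of 19 chemokine genes, 16 were called higher and 0 lower, beside 8.72% and 8.26% of all genes. Their median log2 fold change was 2.15. Without replicate 1 there were 12 higher and 0 lower (5.7% and 5.46% of all genes), and in WT 9 and 0 (14.2% and 14.5%). Cxcl2 (Entrez 20310, mm10 chromosome 5, 90903899 to 90905938), which attracts neutrophils through CXCR2, was at 0.315, 0.352 and 0.501 CPM in untreated cells and at 51.1, 35.4 and 42.8 CPM after Jurkat cells. The rise was of like size in the 3 libraries (log2 fold change 6.77, SE 0.208, edgeR FDR 4.71e-20; 6.63 without replicate 1). Cxcl1, a second CXCR2 ligand, went from 0.630, 0.726 and 0.842 CPM to 11.1, 7.09 and 8.14 CPM (log2 fold change 3.57).

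Inflammatory chemokines of the CC family rose as well. Ccl3 was at 8.92, 7.48 and 7.11 CPM in untreated cells and at 48.0, 23.7 and 32.5 CPM after Jurkat cells (log2 fold change 2.15, edgeR FDR 1.38e-10). Ccl4 had a log2 fold change of 2.80. Ligands of CXCR3, the receptor of effector T cells, were far more uneven. Cxcl9 went from 0.735, 0.580 and 0.842 CPM to 59.8, 3.81 and 9.62 CPM (log2 fold change 5.07, edgeR FDR 9.67e-06). Cxcl10 went from 2.16, 1.33 and 1.02 CPM to 102.6, 8.99 and 20.6 CPM (log2 fold change 4.88). Replicate 1 was the highest by about an order of magnitude over replicate 2 for both. Every Jurkat library lay above every untreated one, which the rule for naming the largest rises required. Without replicate 1 the log2 fold changes were 3.21 for Cxcl9 and 3.30 for Cxcl10, with FDRs of 1.65e-06 and 9.68e-10. Cxcl11 had no count in untreated cells and 160 counts over the 3 Jurkat libraries, at least 55.5-fold higher over a floor of 3 counts for the group. Of Cxcl3 the call was lost without replicate 1 (log2 fold change 4.12, then 2.06 with an FDR of 0.0548).

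Cytokine and growth factor genes were called higher in 15 of 24 cases and lower in 0, beside 8.72% and 8.26% of all genes. Their median log2 fold change was 0.89. Without replicate 1, 13 were higher (5.7% of all genes), and in WT 11 (14.2%). Tnf (Entrez 21926, mm10 chromosome 17, 35199367 to 35202007), which encodes tumour necrosis factor, was at 9.43, 9.43 and 9.10 CPM in untreated cells and at 133.1, 98.5 and 131.0 CPM after Jurkat cells. It rose evenly (log2 fold change 3.70, SE 0.103, edgeR FDR 1.1e-20; 3.62 without replicate 1). Il1b, the precursor of interleukin-1 beta, went from 25.7, 25.7 and 24.3 CPM to 123.4, 64.0 and 80.3 CPM (log2 fold change 1.82, and 1.51 without replicate 1). Il10, an inhibitory cytokine, went from 0.357, 0.124 and 0.1 CPM to 1.65, 1.46 and 1.65 CPM (log2 fold change 3.03). Osm, a cytokine of the interleukin-6 family, had a log2 fold change of 1.17 and reached 5.33, 5.63 and 6.06 CPM.

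For 3 cytokines the rise sat mainly in replicate 1. Il12b, which encodes the p40 subunit of interleukins 12 and 23, went from 16.1, 16.8 and 16.7 CPM to 94.8, 23.5 and 30.1 CPM (log2 fold change 1.58; 0.70 without replicate 1; FDR 0.0504 when these 2 groups alone were fitted). Il6 went from 0.252, 0.622 and 0.501 CPM to 7.15, 0.899 and 1.71 CPM (log2 fold change 2.81, and 1.5 without replicate 1). Ifnb1, interferon beta, had no count in untreated cells and 15 counts over the 3 Jurkat libraries, at least 5.21-fold higher over a floor of 3 counts for the group, with 0.238, 0.0209 and 0.0651 CPM. Its edgeR FDR of 0.0248 was 0.176 without Jurkat replicate 1 and 0.0566 to 0.0714 without any 1 of the untreated libraries. Acod1, which makes the metabolite itaconate, was a further gene of this kind, at 38.3, 5.21 and 10.1 CPM against 0.588, 0.871 and 0.882 CPM (log2 fold change 4.5; 3.28 without replicate 1).

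**Figure D3:**
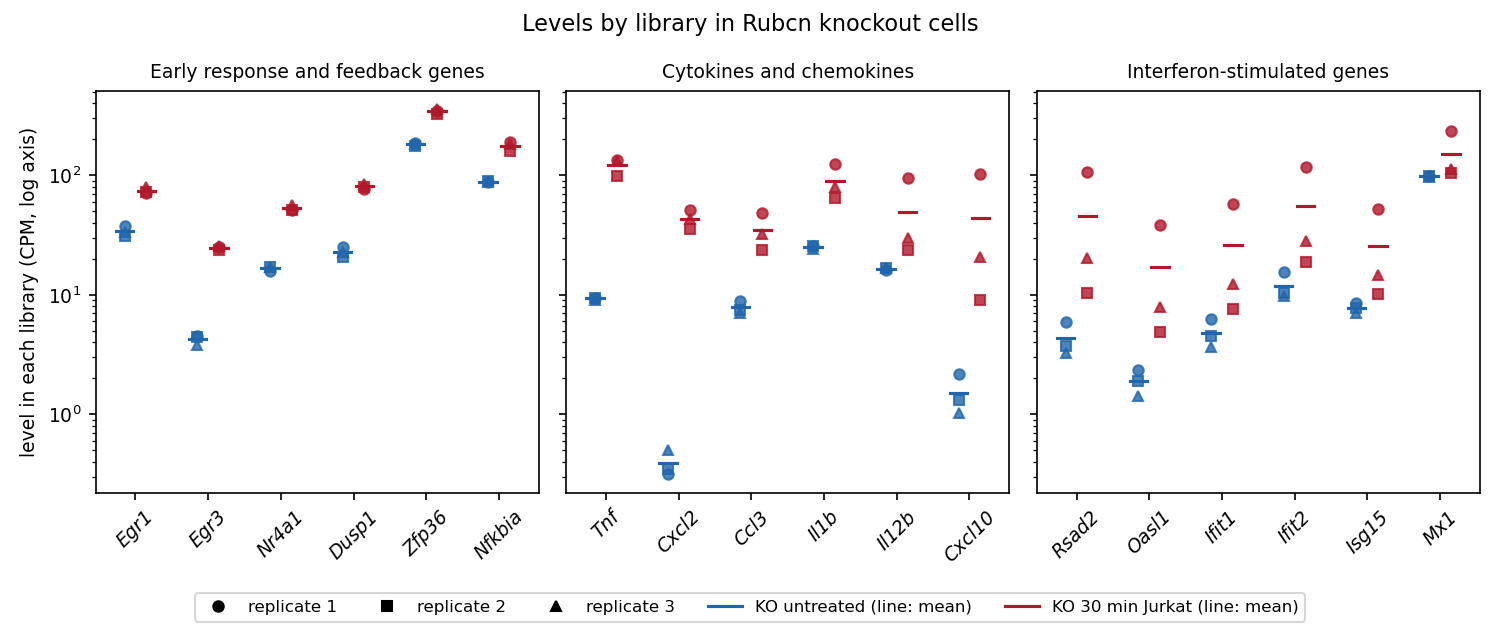
Level in CPM (log axis) of 18 genes in each of the 3 untreated (blue) and 3 Jurkat (red) KO libraries, with marker shape for the replicate number and a line at the mean. Early response genes sit close together in the Jurkat libraries, while for Cxcl10, Il12b and the interferon-stimulated genes replicate 1 stands well above replicates 2 and 3.

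Calls among interferon-stimulated genes rested largely on replicate 1. Of 40 genes tested, 25 were called higher and 0 lower, beside 8.72% and 8.26% of all genes. The median log2 fold change was 0.59. Without replicate 1 the counts were 10 higher and 1 lower (5.7% and 5.46% of all genes) and the median was 0.15. In WT the same list had 0 higher and 3 lower (14.2% and 14.5% of all genes) and a median of -0.12. After 30 min of OVA in KO, which shares the untreated control, the list had 0 called and a median of -0.03. That comparison called 558 genes over all (3.77%), 279 in each direction (1.88%). Replicate 1 held the highest level of the 3 Jurkat libraries for all 40 genes and exceeded every untreated library for 39. The number above every untreated library was 18 in replicate 2 and 27 in replicate 3, and replicate 3 exceeded replicate 2 for 35 of the 40.

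Rsad2 (Entrez 58185, mm10 chromosome 12, 26442743 to 26456452), the antiviral enzyme viperin, was at 5.98, 3.71 and 3.29 CPM in untreated cells and at 106.1, 10.4 and 20.3 CPM after Jurkat cells. Its groups did not overlap, with or without replicate 1 (log2 fold change 3.40, SE 0.488, edgeR FDR 1.17e-05; 1.82 and 1.54e-06 without it). Ifit1 went from 6.32, 4.52 and 3.67 CPM to 57.9, 7.59 and 12.2 CPM (log2 fold change 2.42; 1.04 without replicate 1). Ifit2 went from 15.5, 10.3 and 9.82 CPM to 118.1, 18.8 and 28.0 CPM (log2 fold change 2.21; 0.98 without it). IFIT proteins bind viral RNA that lacks the host cap mark. Isg15, a ubiquitin-like modifier, was at 8.59, 7.71 and 6.99 CPM and then at 52.6, 10.1 and 14.8 CPM (log2 fold change 1.73; 0.68 with an FDR of 0.00836 without replicate 1). Oasl1 rose by 3.17 on the log2 scale and, without replicate 1, by 1.75. For these 5 genes the call held without replicate 1 at a smaller fold change. When these 2 groups alone were fitted, Isg15 had an FDR of 0.0629.

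Other members lost the call. Mx1, a GTPase that blocks influenza viruses, was at 99.2, 98.3 and 97.4 CPM in untreated cells and at 234.4, 105.2 and 113.5 CPM after Jurkat cells (log2 fold change 0.62; 0.15 with an FDR of 0.13 without replicate 1). Irf7, the transcription factor that amplifies type I interferon, rose by 0.57 on the log2 scale, whereas without replicate 1 the value was 0.18 (FDR 0.242). The summed level of the list was 2315 to 2430 CPM in untreated KO cells and 3847, 2316 and 2458 CPM in Jurkat replicates 1, 2 and 3, so that only replicates 1 and 3 lay above the untreated range. After 4 h of Jurkat cells it was 27864 to 30755 CPM.

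**Figure D4:**
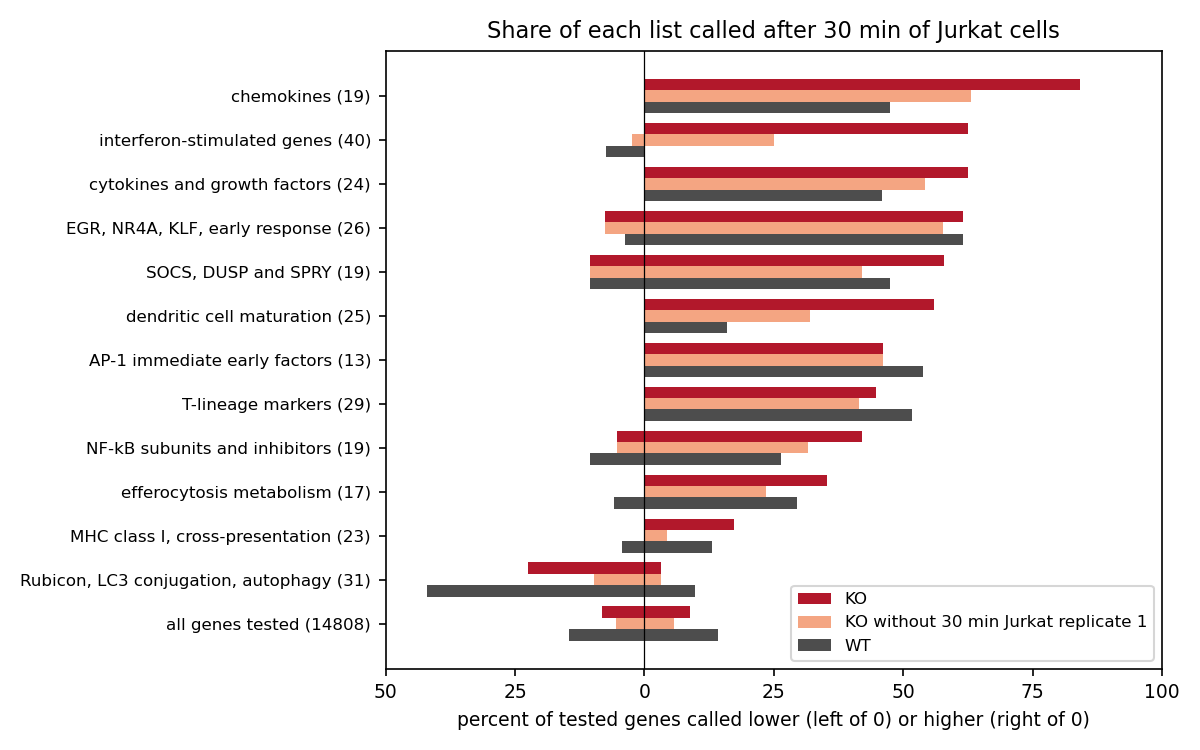
Percent of each gene list called higher (right of 0) or lower (left of 0) after 30 min of Jurkat cells, in KO, in KO without Jurkat replicate 1, and in WT, with the number of genes tested in brackets. Interferon-stimulated genes go from 25 to 10 of 40 called higher when replicate 1 is left out, whereas early response genes go from 16 to 15 of 26. The share over all genes goes from 8.72% to 5.7%.

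Maturation genes of dendritic cells, which prepare the cell to meet T cells, were called higher in 14 of 25 cases and lower in 0, with a median log2 fold change of 0.33. Over all genes 8.72% were called higher and 8.26% lower. Without replicate 1, 8 of the 25 were called higher, beside 5.7% of all genes, with a median of 0.15. WT had 4 of 25, near the 14.2% of all genes called higher there. Cd83, a maturation marker, was at 125.3, 132.5 and 130.8 CPM in untreated cells and at 247.2, 196.0 and 210.8 CPM after Jurkat cells (log2 fold change 0.75, edgeR FDR 9.1e-09; 0.65 without replicate 1). Cd274, which encodes the checkpoint ligand PD-L1, rose by 1.16 on the log2 scale and, without replicate 1, by 0.68. Cd40, the receptor for T-cell help, went from 13.4, 13.5 and 14.0 CPM to 72.6, 18.3 and 24.0 CPM (log2 fold change 1.49; 0.63 without replicate 1; FDR 0.0565 when these 2 groups alone were fitted). The calls of Ccr7, the lymph node homing receptor, and of the costimulator Cd86 were lost without replicate 1 (log2 fold changes 0.33 and 0.26, then 0.23 and 0.13 with FDRs of 0.0785 and 0.159).

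Of 23 genes of MHC class I and cross-presentation, 4 were called higher, beside 8.72% of all genes, and 1 of these held without replicate 1, beside 5.7%. The median log2 fold change was 0.05. The 1 that held, H2-D1, went from 327.9, 341.0 and 343.9 CPM to 389.4, 383.4 and 382.2 CPM (log2 fold change 0.19), and heavy chains of class I have close paralogs that make their counts uncertain. In the MHC class II pathway 1 of 13 was called, H2-DMb1 at a log2 fold change of 0.12 (edgeR FDR 0.0314), and without Jurkat replicate 2 (FDR 0.141), KO untreated replicate 1 (FDR 0.135) or KO untreated replicate 2 (FDR 0.0554), or with scaling to total counts (FDR 0.0632), it was not. Of 7 subunits of NADPH oxidase 2, which makes superoxide in the phagosome, 1 was called, the shared GTPase Rac1 (log2 fold change 0.12), and this call was lost without Jurkat replicate 2 (FDR 0.0696) or KO untreated replicate 2 (FDR 0.0558). The catalytic subunit Cybb was at 631.5 to 737.8 CPM in untreated cells and at 685.9 to 776.0 CPM after Jurkat cells, and was not called (log2 fold change 0.11, FDR 0.284).

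Rubicon acts within the autophagy machinery. Of 31 genes of class III phosphatidylinositol 3-kinase, LC3 conjugation and autophagy, 7 were called lower and 1 higher, with a median log2 fold change of -0.05, beside 8.26% lower and 8.72% higher over all genes. Without replicate 1 there were 3 lower and 1 higher (5.46% and 5.7% of all genes), and WT had 13 lower and 3 higher (14.5% and 14.2%). Nbr1, an autophagy receptor for ubiquitinated cargo, was at 138.2, 134.5 and 129.1 CPM in untreated cells and at 101.8, 105.0 and 110.6 CPM after Jurkat cells (log2 fold change -0.34, SE 0.0396, edgeR FDR 3.54e-07). Wipi2, which recruits the LC3 conjugation complex to membranes, had a log2 fold change of -0.20. The gene that rose was Sqstm1, the receptor p62, which is also a target of stress pathways, from 253.4, 247.3 and 245.2 CPM to 340.5, 279.2 and 286.0 CPM (log2 fold change 0.28; 0.19 without replicate 1).

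Receptors for apoptotic cells, bridging molecules and engulfment genes showed few calls: 3 of 32 were higher and 1 lower, near the shares of 8.72% and 8.26% over all genes. Timd4, a phosphatidylserine receptor, was at 1.78, 0.788 and 0.962 CPM in untreated cells and at 4.29, 1.32 and 2 CPM after Jurkat cells, so that the groups overlapped. Its log2 fold change of 1.10 was 0.49 without Jurkat replicate 1 (FDR 0.198), and its FDR without KO untreated replicate 2 was 0.0572. Elmo2, an engulfment adaptor, had a log2 fold change of -0.16 (edgeR FDR 0.00405). Of 17 genes of efferocytosis metabolism, 6 were called higher and 0 lower, beside the same shares. Without replicate 1 there were 4 and 0 (5.7% and 5.46% of all genes). The 6 included Odc1, which makes putrescine (log2 fold change 0.38), and the glucose carrier Slc2a1 (0.24), whose calls held without replicate 1.

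Sterol and lipid genes had 2 higher and 4 lower calls among 30, near the shares of 8.72% and 8.26% over all genes. Scd2, a fatty acid desaturase, was at 758.4, 761.4 and 702.1 CPM in untreated cells and at 621.9, 619.0 and 623.1 CPM after Jurkat cells (log2 fold change -0.25, edgeR FDR 0.00137). Mvd, an enzyme of mevalonate use, had a log2 fold change of -0.24. Stress genes had 4 higher and 4 lower calls among 23, beside the same shares over all genes. Without replicate 1 there were 1 and 3, beside 5.7% and 5.46%. Ppp1r15a, the phosphatase subunit that ends the integrated stress response, rose from 19.6, 19.2 and 19.0 CPM to 37.6, 32.4 and 37.0 CPM (log2 fold change 0.89), whereas the heat shock proteins Hspa8 and Hsph1 had log2 fold changes of -0.23 and -0.31. Cell cycle and replication genes were called higher in 11 of 27 cases and lower in 1, beside 8.72% and 8.26% of all genes. Their median log2 fold change was 0.11, and 10 were called higher without replicate 1, beside 5.7% of all genes.

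Falls were small among genes at 5 CPM or more, where the lowest log2 fold change of a called gene was -0.84. That gene was Acrbp (Entrez 54137, mm10 chromosome 6, 125049927 to 125063265), named for the acrosin-binding protein of sperm, at 11.0, 14.3 and 13.9 CPM in untreated cells and at 6.70, 7.32 and 7.99 CPM after Jurkat cells. No library overlapped, which the rule for naming it required (SE 0.0977, edgeR FDR 3.65e-07; log2 fold change -0.77 without replicate 1). Ppef2, a calcium-binding phosphatase, went from 8.36, 11.4 and 11.4 CPM to 5.87, 5.38 and 6.86 CPM (log2 fold change -0.78). Thap2, of a family of zinc-dependent DNA-binding proteins, went from 18.6, 18.5 and 19.2 CPM to 10.5, 10.7 and 12.4 CPM (log2 fold change -0.75). The next were Wdcp, Slc27a3, a fatty acid transport protein, Kctd21, the zinc finger gene Zfp874b and the basic helix-loop-helix factor Bhlha15, with log2 fold changes of -0.68 to -0.60. All 8 were called without replicate 1, and all 8 were also called lower in WT, with log2 fold changes of -1.06 to -0.65.

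Zinc finger genes with the name Zfp, a list drawn by name alone and written after the calls had been seen, fell more often than they rose. Of 344 tested, 69 were called lower (20.1%) and 14 higher (4.07%), beside 8.26% and 8.72% of all genes, and the median log2 fold change was -0.07. Without replicate 1 the counts were 52 lower and 10 higher (5.46% and 5.7% of all genes), and in WT 126 and 26 (14.5% and 14.2%). Many such genes encode repressors with KRAB domains and have near copies, between which reads may be split.

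Replication-dependent histone genes, also listed after the calls had been seen, held 16 of the 29 falls of at least 2-fold. Of 40 genes with the name Hist that were tested, 17 were called lower and 0 higher, beside 8.26% and 8.72% of all genes, with a median log2 fold change of -1.03. All 17 stood at 1.85 CPM or less in untreated cells. The summed level of the list moved little, from 75.5 to 80.5 CPM in untreated KO libraries to 71.2 to 75.5 CPM after Jurkat cells. In WT it was 73.2 to 80.1 CPM untreated and 82.6 to 85.9 CPM after Jurkat cells. Hist1h1b, a linker histone, was at 1.20, 2.07 and 2.28 CPM in untreated cells and at 0.173, 0.335 and 0.152 CPM after Jurkat cells (log2 fold change -3.05, edgeR FDR 4.68e-05; -2.91 without replicate 1). Hist1h1d went from 1.53, 1.66 and 2.14 CPM to 0.477, 0.565 and 0.456 CPM (log2 fold change -1.83). The main transcripts of these genes end in a stem-loop without a poly(A) tail, and members have near-identical coding sequences. After 30 min of OVA, against the same untreated libraries, 8 were called lower (1.88% of all genes) with a median of -0.78. After Jurkat cells in WT 15 were lower and 4 higher (14.5% and 14.2% of all genes) with a median of -0.87.

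Genes of the T lineage were examined because Jurkat is a T-cell line. Of 29 tested, 13 were called higher and 0 lower, beside 8.72% and 8.26% of all genes. Without replicate 1 there were 12 and 0 (5.7% and 5.46% of all genes), and in WT 15 and 0 (14.2% and 14.5%). Lef1, a T-cell transcription factor, was at 0.273, 0.207 and 0.321 CPM in untreated cells and at 12.3, 11.8 and 7.51 CPM after Jurkat cells (log2 fold change 5.28, SE 0.241, edgeR FDR 9.54e-16). Zap70 and Cd3e, parts of T-cell receptor signalling, had log2 fold changes of 3.19 and 3.89. The whole list, which holds members that the untreated cells express, summed to 395.0 to 413.6 CPM in untreated cells and to 423.5 to 438.0 CPM after Jurkat cells. The summed level of the 14 members under 1 CPM in untreated KO cells was 3.55, 4.83 and 5.03 CPM there and 30.1, 30.4 and 20.01 CPM after Jurkat cells. The means were 4.47 ± 0.803 and 26.9 ± 5.93 CPM (SD, n = 3), given with no test because the members were chosen by their untreated level. Replicate 1 did not stand apart here. In WT the sum went from 3.80 ± 0.0374 to 42.7 ± 1.18 CPM (SD, n = 3).

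A gene outside any list, Myo7b, an unconventional myosin of brush borders, had the largest rise among genes at 5 CPM or more. It held 2 counts over the untreated libraries, both in replicate 2, and 1047 over the Jurkat libraries, a ratio of 545 with a 95% counting interval of 150.5 to 4506. Its levels were 8.26, 8.07 and 6.08 CPM in replicates 1, 2 and 3, lowest in replicate 3, as was the T-lineage sum. The 3 ribosomal protein genes called of 83 tested were Rpl10l, Rpl32l and Rpl39l, paralogs of ribosomal genes that most tissues hardly use. Rpl10l had no count in untreated cells and 214 after Jurkat cells, at least 74.3-fold higher over a floor of 3 counts for the group. Of 40 genes whose coding sequence is nearly the same in human and mouse, 12 were called higher and 1 lower, beside 8.72% and 8.26% of all genes, with a median log2 fold change of 0.07. The sources used here do not say how reads of human RNA were handled in counting. Their part in the rises of T-lineage, paralog and other low genes was not tested, and a change within the dendritic cells cannot be told apart from a change in the share of cells.

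Compared with KO cells given OVA for 30 min, KO cells given Jurkat cells differed in 1514 genes (10.2%), 785 higher (5.3%) and 729 lower (4.92%), and in 832 without Jurkat replicate 1 (5.55%). The count was 995 without Jurkat replicate 2 and 852 without OVA replicate 2. Replicate 3 of the OVA group was shallow, at 9.73 M counts, and without it 1097 genes were called. The largest rises by the rule were again Myo7b, Lef1 and Cxcl9. The largest falls were Acrbp (log2 fold change -0.77), Ager, the receptor for advanced glycation end products (-0.66), and Trip6, a LIM-domain adaptor (-0.61). Against untreated cells Ager stood at -0.48, a call that was lost without Jurkat replicates 1 or 2 or KO untreated replicates 2 or 3 (FDRs 0.0841 to 0.0992).

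Treatments could be set side by side for genes that rose, with the untreated control shared. Tnf reached 120.8 ± 19.4 CPM with Jurkat cells and 39.4 ± 2.92 CPM with OVA, from 9.32 ± 0.193 CPM untreated (SD, n = 3 each). Cxcl2 reached 43.1 ± 7.84 and 9.05 ± 1.16 CPM, from 0.389 ± 0.0983 CPM. Egr1 moved in opposite directions from its untreated 34.3 CPM, to 74.4 CPM with Jurkat cells and to 17.4 CPM with OVA, and the direct test between the treatments gave a log2 fold change of 2.11 (SE 0.105, edgeR FDR 1.58e-14). For Tnf the same test gave 1.63, for Cxcl2 2.19 and for Egr3 2.20, with FDRs of 3.83e-13, 1.25e-12 and 2.16e-16.

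Whether the response differed from that of WT cells was tested as the difference of the 2 responses. In WT 4247 genes were called (28.7%), 2097 higher (14.2%) and 2150 lower (14.5%). Of the 2514 genes called in KO, 96.7% had the same sign of fold change in WT, beside 75.7% of all genes tested. The difference itself was called for 1 gene (0.00675%), by edgeR, while 1098 genes had an unadjusted p under 0.05. DESeq2 called 22 of the 4760 genes to which it gave an adjusted p. The log2 fold change was higher in KO than in WT for 21 and lower for 1, and 4 belonged to the list of interferon-stimulated genes. Nrn1 was not among the 22, as DESeq2 gave it no adjusted p. The gene called by edgeR was Nrn1, which encodes the neuronal protein neuritin, at 0.420, 0.580 and 0.461 CPM in untreated KO cells and at 1.73, 1.55 and 1.15 CPM after Jurkat cells. WT had 0.0788 ± 0.0153 and 1.73 ± 0.344 CPM (SD, n = 3), so the levels after Jurkat cells were alike and the untreated levels were not (difference of log2 fold changes -2.82, SE 0.463, edgeR FDR 0.0219). It was not called with only the groups compared in the fit (FDR 0.0714) and was removed by the filter of 5 CPM.

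This test turned on single libraries. Without Jurkat replicate 1 of KO, 5 genes were called (0.0333%). Rsad2, Oasl1 and Cxcl10 had a larger response in KO (0.02%; differences 1.73, 1.43 and 2.29, FDRs 0.0235, 0.0238 and 0.0363), and Nrn1 and Tox a smaller one (0.0133%; differences -2.95 and -1.17, FDRs 0.0129 and 0.0238). Without Jurkat replicate 2 of KO, 81 genes were called, 75 of them with a larger response in KO, and 24 of the 81 belonged to the list of interferon-stimulated genes. Without replicate 3 there were 5, of which 4 belonged to it. With all libraries the list had 0 calls and a median difference of 0.70. The untreated level of Rsad2, whose difference between genotypes was not tested, was 4.33 ± 1.45 CPM in KO against 11.3 ± 1.34 CPM in WT. After Jurkat cells the 2 levels were 45.6 ± 52.6 and 12.1 ± 0.657 CPM (SD, n = 3). For the early genes the responses lay close: the difference was -0.01 for Dusp1, 0.06 for Nr4a1 and -0.06 for Egr3, with SEs of 0.0933, 0.0714 and 0.122 and FDRs of 0.929 to 0.995, which does not show that they are equal.

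**Figure D5:**
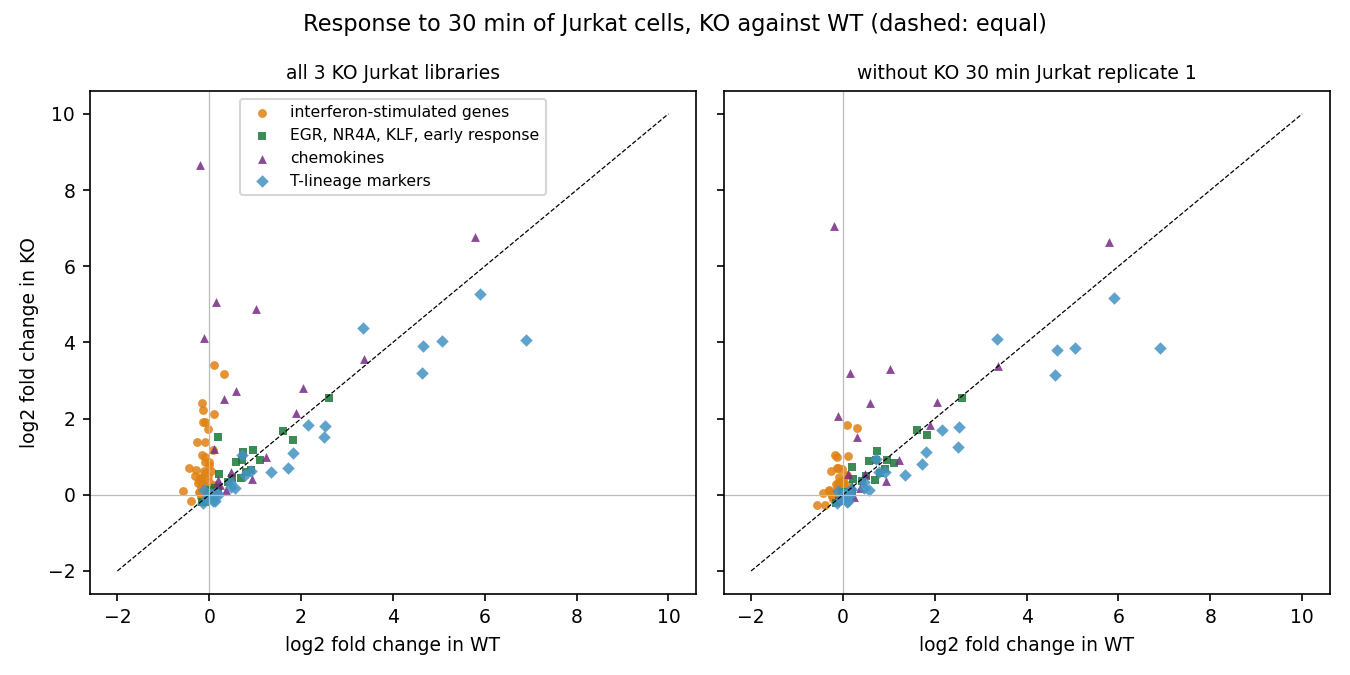
Log2 fold change after 30 min of Jurkat cells in KO (vertical) against WT (horizontal) for members of 4 lists, with all KO Jurkat libraries at the left and without replicate 1 at the right. Early response genes lie along the dashed line of equal response, Lef1, Cd3e and Zap70 of the T lineage lie below it, and interferon-stimulated genes reach higher on the KO axis than on the WT axis, less so at the right.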

How the data were processed

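The authors deposited raw counts per gene for 30 libraries of 10 groups, on mm10, made from poly(A) RNA libraries. Per the submitters' processing notes, STAR 2.5, Subread, featureCounts 1.5.0-p1 and DESeq2 were used. The sources used here do not give the annotation, the use of strand or the handling of human reads. Groups follow the titles. Counts were fitted with edgeR 4.0.16 (R 4.3.3, limma 3.58.1): TMM scaling, filterByExpr, which kept 14808 of 25611 rows with 99.99% of counts, 1 mean per group over all libraries, quasi-likelihood tests, and Benjamini-Hochberg adjustment over all genes tested (FDR under 0.05 called). DESeq2 1.42.0 was an alternative, beside other scalings, filters, a replicate block and leaving out libraries. On simulated counts over 14479 genes, 92.5% of 1.5-fold and 100% of 2- and 4-fold changes were recovered for the main comparison, with 14 false calls. The simulation gave every gene the same spread, held no library that stood apart and changed only genes with a mean of at least 1 CPM. Its figures therefore do not carry over to lower genes or to calls that rest on 1 library. Replicates differed by more than sampling noise (chi-square per degree of freedom at least 2.84 in the untreated group), so none was merged. Counting intervals and floors (3 counts over a group) cover counting error only. Named genes are the 8 largest rises, the 8 largest rises from at least 5 CPM, the 8 largest falls among genes of at least 5 CPM, 3 in each direction against OVA, and list members. Genes named by size of change had to be called and to show no overlap between the libraries of the 2 groups compared. The comparison, the 29 lists and the 2 lists added later (Zfp and Hist names) were chosen with earlier results of these data known. Motifs were searched on both strands.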

Additional observations from a re-analysis of the deposited data

Results flagged for a closer look

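The response of Nrn1 to 30 min of Jurkat cells differed between the genotypes by the test of the difference itself. The log2 fold change in KO minus that in WT was -2.818 (edgeR FDR 0.0219), with a higher untreated level in KO. The FDR was 0.00367 to 0.13 over the libraries left out in turn, and above 0.05 without KO untreated replicates 2 or 3, without WT Jurkat replicate 2 and without any 1 of the WT untreated libraries. It was also above 0.05 with only the groups compared (0.0714) and with the replicate block (0.0536), the gene was removed by the stricter filter, and DESeq2 gave it no adjusted p.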

How the results depend on the processing

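Genes called higher were 44.37% (scaling to total counts) to 53.39% of calls over the alternatives, against 51.35%, and the median over all genes stayed within 0.0121 of 0 on the log2 scale. When only the groups compared were fitted, 1460 genes were called, 675 higher and 785 lower, with 197 of at least 2-fold, and 734 against OVA. Leaving out 1 library gave 1674 to 2472 calls, 855 to 1269 higher and 784 to 1203 lower, 290 to 404 of at least 2-fold, and 832 to 1592 against OVA. The stricter filter of 5 CPM left 114 genes of at least 2-fold. The difference between KO and WT was called for 7 genes without a filter and for 22 by DESeq2, out of 4760 given an adjusted p. It was called for 0 with the stricter filter, with only the groups compared or with the replicate block, and for 0 to 81 with 1 library left out. The replicate number was not used as a pairing in the main fit. Same-numbered untreated and Jurkat libraries had correlations of -0.00156, 0.00222 and -0.0328, taken over all genes, which does not settle whether they were paired. The replicate block gave 2650 calls against untreated and 1697 against OVA, beside 2514 and 1514 without it. The T-lineage sum differed by 22.39 CPM, by 29.89 CPM over all members, and by 20.6 to 25.81 CPM with 1 library left out. Of 100 named genes called, 75 kept the call and direction under every alternative that tested them. Under the stricter filter 90 of the 100 kept the call, and the rest were removed before testing. Causes were not tested. With 3 libraries a group, small changes of low genes may go undetected.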
